A study of Mus musculus with 4 samples.

Results

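The 9 genes described here belong to oligodendrocytes, the glial cells that wrap axons of the brain and spinal cord in myelin: Mbp, Mobp, Mal, Cldn11, Mog, Mag, Cnp, Olig2 and Pdgfra. They were chosen by gene symbol, and all 25 probe sets that the platform annotation assigns to them were taken, out of 45037 probe sets that are no controls; the annotation names 18193 genes in all. The array reads a transcript through sets of short oligonucleotides, each set giving 1 value; 5 of the genes have several and 4 have 1. The study hybridised 4 Affymetrix mouse arrays, 2 with cDNA amplified by a Nugen kit and 2 with antisense RNA (aRNA) from T7-based amplification, each pair numbered 0 and 1. The RNA on all 4 is labelled as that of brain, hindbrain and spinal cord of the mouse. The labels used here do not give a strain, age, genotype or treatment, the number of animals, or the meaning of the numbers.

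Oligodendrocyte progenitors carry the growth factor receptor encoded by Pdgfra, and Olig2 directs the lineage from progenitor to mature cell. Mature cells then switch on genes for the proteins of the sheath, some of which compact the membrane layers while others sit at its outer face, at the contact with the axon or in its tight junctions. These transcripts are among the most used markers of white matter, which spinal cord and hindbrain hold in large amounts. In RNA from whole tissue, fewer oligodendrocytes and less RNA per oligodendrocyte cannot be told apart.

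All levels below are log2(intensity + 16) of the deposited values, and differences are on that log2 scale, cDNA minus aRNA or number 1 minus number 0. The deposited intensities have the same 2% trimmed mean on all 4 arrays, so a difference is relative to each array's mean brightness. Background, taken as the 95th percentile of 27 probe sets for Bacillus transcripts, lay at 7.83 and 8.05 on cDNA arrays 0 and 1 and at 7.12 and 7.15 on aRNA arrays 0 and 1. At 21 of the 25 probe sets all 4 arrays lay above it, so transcripts of all 9 genes were measured in both preparations. Levels of different probe sets are not set against each other, since probes differ in affinity. One array stands apart by its sex-linked transcripts. Eif2s3y, a Y-linked gene, read 7.92 and 4.75 on cDNA at 1417210_at, against 13.12 on aRNA array 0 and 6.79 on aRNA array 1. Xist, which is made from the inactive X chromosome of females, read 11.94 and 12.51 on cDNA against 8.55 and 15.44 on aRNA at 1436936_s_at, and aRNA array 0 was also the lowest at both other Xist probe sets. Thus aRNA array 0 was high for the Y-linked gene and low for Xist, the reverse of the other 3 arrays, and the aRNA pair, and number 1 against number 0 on aRNA, set RNA of different sex content side by side; the part of sex in the differences below was not tested. Each call between the preparations was also made without that array, and the values are given where a call of the 9 genes was lost.

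The RefSeq promoter table (GRCm38.p6) was read for 8 of the 9 genes, all but Mbp, and the 250 bases before the transcription start of 3 of them are shown because they hold the letters CTGGCAC or CTGGTAC on either strand, which the myelin regulator encoded by Myrf binds. Of 32851 mouse promoter stretches of the same length, 5.93% hold one of these 7-letter words. Such a match is a description of the sequence and not a binding site shown here. The stretches are written on the gene's own strand with the match in capitals: chr17:37023399-37023648 on the minus strand for Mog, chr7:30914923-30915172 on the minus strand for Mag (the most upstream of its 3 listed starts, of which 2 have a match) and chr11:100574689-100574938 on the plus strand for Cnp.
Mog: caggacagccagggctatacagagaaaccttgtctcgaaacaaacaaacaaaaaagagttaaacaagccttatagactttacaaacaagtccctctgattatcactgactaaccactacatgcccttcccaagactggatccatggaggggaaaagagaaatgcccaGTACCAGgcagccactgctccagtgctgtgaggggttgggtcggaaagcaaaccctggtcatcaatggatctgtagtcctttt
Mag: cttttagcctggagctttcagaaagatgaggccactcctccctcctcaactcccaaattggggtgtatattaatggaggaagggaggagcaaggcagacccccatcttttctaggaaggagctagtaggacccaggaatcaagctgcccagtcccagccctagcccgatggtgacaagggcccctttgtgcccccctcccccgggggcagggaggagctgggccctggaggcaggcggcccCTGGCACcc
Cnp: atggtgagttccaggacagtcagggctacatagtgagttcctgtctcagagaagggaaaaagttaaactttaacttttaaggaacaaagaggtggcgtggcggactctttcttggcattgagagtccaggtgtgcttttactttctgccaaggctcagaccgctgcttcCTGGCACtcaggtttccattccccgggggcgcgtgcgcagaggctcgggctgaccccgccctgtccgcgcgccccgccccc
In Mog the word reads as the reverse complement. The genes of these 3 promoters did not share a direction between the preparations, a contrast that does not measure promoter activity. Mog was higher on cDNA, Mag did not pass the test with a negative difference, and probe sets of Cnp were called both ways. Their values are given below. The stretches of Mobp, Mal, Cldn11, Olig2 and Pdgfra hold neither word.

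**Figure D1:**
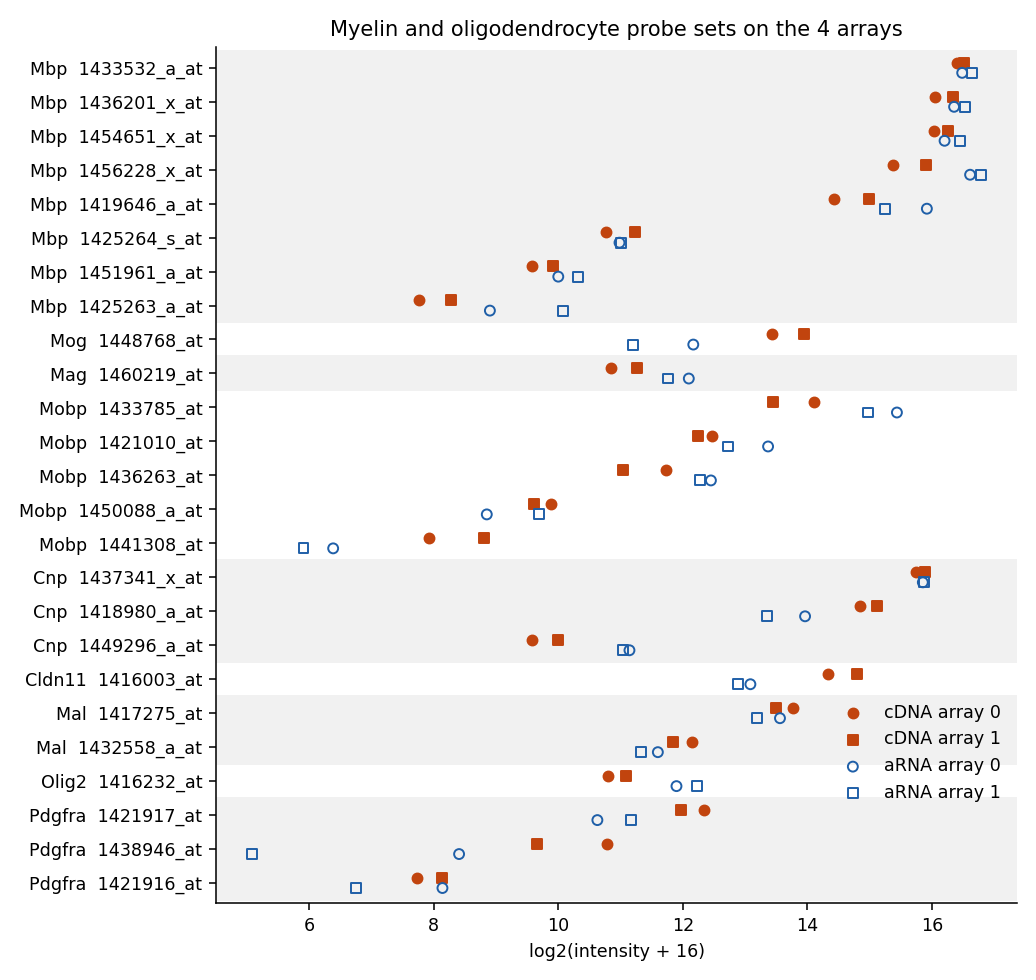
Level of each of the 25 probe sets, log2(intensity + 16), on cDNA arrays 0 and 1 (filled) and aRNA arrays 0 and 1 (open), grouped by gene. The 2 preparations overlap at 7 probe sets; at 7 both cDNA arrays lie above both aRNA arrays and at 11 both lie below.

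The first question is how far the readings of these genes differ between the 2 preparations. The labels do not say whether both preparations were made from the same RNA. The way of making target and the RNA used therefore cannot be told apart in these differences. Mog, Cldn11 and Pdgfra were higher in the cDNA preparation than in aRNA at their brightest probe set, Mobp and Olig2 were lower, and Mbp, Mag, Cnp and Mal did not pass the test there. Of the 23 probe sets bright enough to be tested, 5 were called higher, 6 lower and 12 neither (limma, adjusted over all 22519 tested probe sets, threshold 0.05). That is 47.8% called, against 43.2% of all tested probe sets (20.2% higher and 22.9% lower), so the share of calls among these genes was near that of the array as a whole. At an unadjusted p under 0.05 there were 14 (limma), against 51.3% of all tested probe sets. The median difference over the 23 was −0.17, against −0.11 over all tested probe sets, and the median size of the difference, regardless of sign, was 0.88 for both. At 17 of the 23, or 73.9%, the 2 preparations did not overlap, against 73.8% of all tested probe sets.

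**Figure D2:**
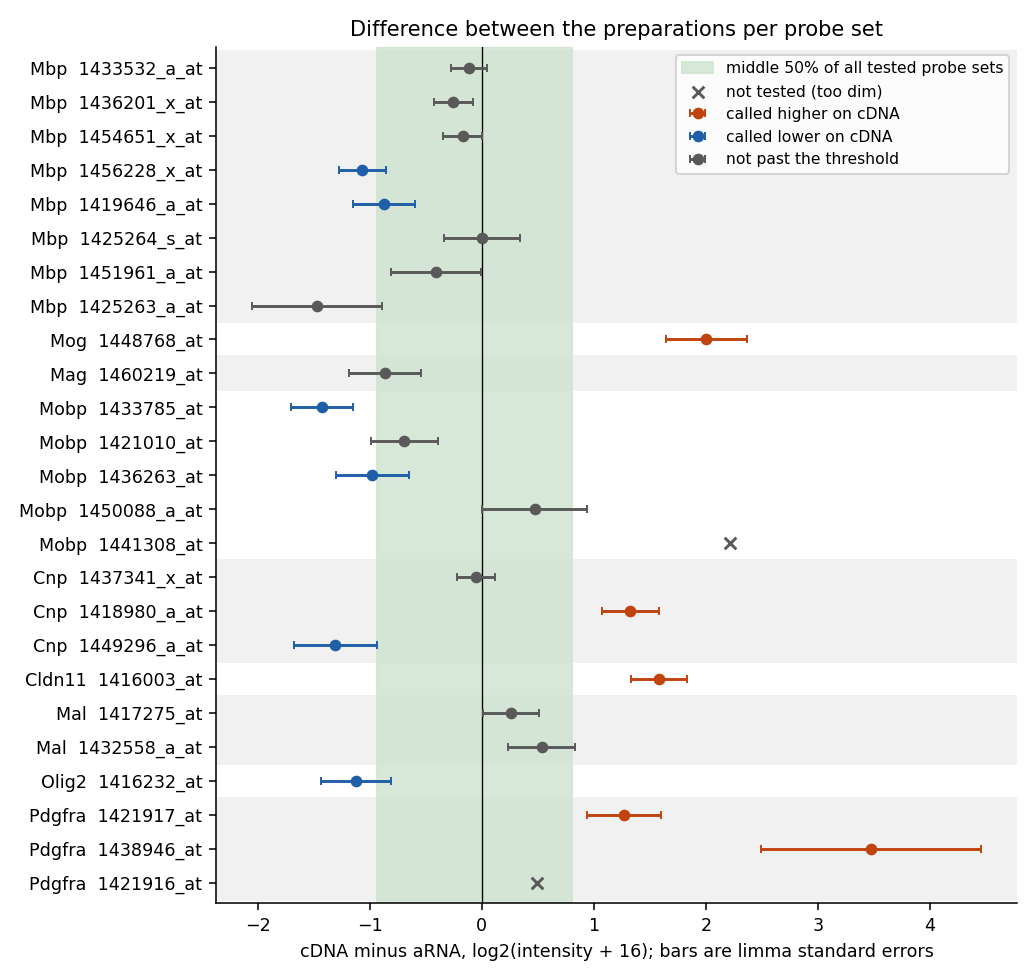
Difference cDNA minus aRNA in log2(intensity + 16) for each probe set, with limma standard errors as bars. Red points were called higher on cDNA, blue ones lower, grey ones neither, and crosses were too dim to be tested. The green band runs from the 25th to the 75th percentile of all 22519 tested probe sets, from −0.93 to 0.81.

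Mbp encodes myelin basic protein, which holds the inner faces of the myelin membrane together. Its brightest probe set, 1433532_a_at, read 16.40 and 16.51 on cDNA arrays 0 and 1, against 16.49 and 16.65 on aRNA arrays 0 and 1. The preparations overlapped there and differed by −0.11 (limma SE 0.16, adjusted p = 0.596). Of the 8 Mbp probe sets, all tested, 2 were called lower on cDNA and none higher. The lower ones were 1456228_x_at, with 15.37 and 15.90 on cDNA against 16.61 and 16.78 on aRNA (−1.07, limma SE 0.21, adjusted p = 0.00365), and 1419646_a_at, with 14.43 and 14.99 on cDNA against 15.92 and 15.25 on aRNA (−0.88, limma SE 0.28, adjusted p = 0.0308). In both, each cDNA array lay below each aRNA array.

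The other Mbp probe sets were not called. At 1436201_x_at the arrays read 16.05 and 16.33 on cDNA against 16.36 and 16.54 on aRNA, and at 1454651_x_at 16.04 and 16.27 against 16.20 and 16.44. The dimmer 1425264_s_at, a probe set whose name marks oligonucleotides shared by several transcripts, read 10.76 and 11.23 on cDNA against 10.98 and 11.01 on aRNA. A further probe set, 1451961_a_at, read 9.57 and 9.92 against 10.00 and 10.32. The dimmest, 1425263_a_at, had 7.77 (under background) and 8.27 on cDNA against 8.90 and 10.08 on aRNA, at least 2.71-fold lower on cDNA without passing the test (limma adjusted p = 0.0677). All 8 differences were negative, from −1.47 to −0.001. The spread of the 8 was thus 1.47, against a median of 3.77 among the 8 genes with 8 tested probe sets, Mbp included.

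Mobp, which encodes a small basic protein of compact myelin, was lower on cDNA at 2 of 4 tested probe sets. Its brightest, 1433785_at, read 14.11 and 13.44 on cDNA (13.78 ± 0.48, SD, n = 2), against 15.44 and 14.97 on aRNA (15.21 ± 0.33, SD, n = 2). Both cDNA arrays lay below both aRNA arrays, a 2.69-fold difference (−1.43, limma SE 0.28, adjusted p = 0.0034). The same order held at 1436263_at, with 11.74 and 11.04 on cDNA against 12.45 and 12.28 on aRNA (−0.98, limma adjusted p = 0.0383), and at 1421010_at, with 12.47 and 12.24 against 13.37 and 12.72 (−0.69, limma adjusted p = 0.0892).
The remaining 2 Mobp probe sets had positive differences. The arrays overlapped at 1450088_a_at, which read 9.88 and 9.61 on cDNA against 8.85 and 9.69 on aRNA (0.47, limma adjusted p = 0.445). At 1441308_at the cDNA arrays read 7.92 and 8.80, while both aRNA arrays lay under background (6.39 and 5.91), so it was at least 2.34-fold higher on cDNA and too dim to be tested. The sign of the Mobp difference therefore depended on the probe set, with a spread of 1.90 over the 4 tested against a median of 2.56 over the 470 genes with 4.

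Mal, a proteolipid of the raft-like lipid domains of myelin, read 13.77 and 13.50 on cDNA against 13.56 and 13.19 on aRNA at 1417275_at, where the arrays overlapped (0.26, limma SE 0.25, adjusted p = 0.42). Its other probe set, 1432558_a_at, read 12.15 and 11.84 on cDNA against 11.60 and 11.33 on aRNA (0.53, limma SE 0.30, adjusted p = 0.183). The 2 probe sets thus differed from each other by 0.27 in their contrast, against a median of 1.13 over the 3105 genes with 2 tested probe sets.

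Cldn11 encodes the claudin that forms tight junctions between myelin layers. Its only probe set, 1416003_at, read 14.33 and 14.80 on cDNA (14.57 ± 0.34, SD, n = 2), against 13.09 and 12.88 on aRNA (12.98 ± 0.14, SD, n = 2). Both cDNA arrays lay above both aRNA arrays, a 2.99-fold difference (1.58, limma SE 0.25, adjusted p = 0.00118).

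Mog encodes an immunoglobulin-like protein of the outermost myelin surface, known as an autoantigen in demyelinating disease. At 1448768_at it read 13.43 and 13.94 on cDNA (13.69 ± 0.36, SD, n = 2), against 12.17 and 11.19 on aRNA (11.68 ± 0.69, SD, n = 2). The preparations did not overlap and the cDNA arrays were 4.01-fold higher (2.01, limma SE 0.36, adjusted p = 0.00236). Mag, a sialic acid binding adhesion protein on the inner sheath surface that faces the axon, went the other way without passing the test. Its probe set 1460219_at read 10.85 and 11.27 on cDNA against 12.10 and 11.76 on aRNA, with no overlap (−0.87, limma SE 0.32, adjusted p = 0.0555).

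Cnp, a cyclic nucleotide phosphodiesterase that makes up much of the protein of noncompacted myelin, gave 3 different answers at its 3 probe sets. The brightest, 1437341_x_at, read 15.74 and 15.88 on cDNA against 15.85 and 15.87 on aRNA, with overlap (−0.05, limma SE 0.17, adjusted p = 0.827). At 1418980_a_at both cDNA arrays (14.85 and 15.11) lay above both aRNA arrays (13.96 and 13.35), and the probe set was called higher (1.33, limma SE 0.26, adjusted p = 0.00337). At 1449296_a_at both cDNA arrays (9.57 and 10.00) lay below both aRNA arrays (11.14 and 11.04), and it was called lower (−1.31, limma SE 0.37, adjusted p = 0.0194).
The annotation gives the same source sequence for the pair of Cnp probe sets with opposite calls. Cnp was the only one of the 5 genes with several probe sets to have calls in both directions. Its spread over probe sets was 2.63, against a median of 1.99 over the 1212 genes with 3 tested probe sets.

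Olig2, the basic helix-loop-helix transcription factor that specifies the lineage, read 10.80 and 11.09 on cDNA (10.94 ± 0.20, SD, n = 2) at 1416232_at, against 11.90 and 12.23 on aRNA (12.07 ± 0.24, SD, n = 2). Both cDNA arrays lay below both aRNA arrays, a 2.18-fold difference (−1.12, limma SE 0.31, adjusted p = 0.0185). This call was lost without cDNA array 0 (−0.98, limma adjusted p = 0.0635) and without aRNA array 1 (−0.96, limma adjusted p = 0.116), where the difference kept its sign.

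Pdgfra was higher on cDNA at both tested probe sets. At 1421917_at the cDNA arrays read 12.35 and 11.98 (12.16 ± 0.26, SD, n = 2), against 10.63 and 11.16 on the aRNA arrays (10.90 ± 0.38, SD, n = 2), with no overlap (1.27, limma SE 0.33, adjusted p = 0.0143). At 1438946_at the cDNA arrays read 10.78 and 9.66, against 8.41 on aRNA array 0 and 5.09, under background, on aRNA array 1; the cDNA level was higher by a factor of at least 5.43 (limma adjusted p = 0.0199). The third, 1421916_at, was too dim to be tested, with 7.74 (under background) and 8.14 on cDNA against 8.14 and 6.75 (under background) on aRNA.
Without aRNA array 0 the first call was lost (0.999, limma adjusted p = 0.0757), as it was without cDNA array 0 (1.08, limma adjusted p = 0.061). The second was lost without cDNA array 0 (2.91, limma adjusted p = 0.0976) and without aRNA array 1 (1.81, limma adjusted p = 0.0595).
Fibroblasts of the meninges also express Pdgfra. Among 9 markers of meninges and fibroblasts, cDNA was higher at 7 and lower at 1, with a median difference of 3.05, and the log2 of their summed intensity was 16.16 and 15.25 on cDNA arrays 0 and 1 against 15.45 and 14.56 on aRNA arrays 0 and 1. Among them Col1a1, a collagen chain, differed by 4.37 (limma adjusted p = 8.9e-05), Ogn, a small proteoglycan, was at least 13.6-fold higher on cDNA with aRNA array 1 under background (limma adjusted p = 0.0135), Foxc1, a meningeal transcription factor, differed by 3.76 and Igf2 by 3.67. Dcn, decorin, was the lower one (−2.23). The Ogn call was lost without the intensity trend (limma adjusted p = 0.0535), and the Ogn difference was 3.47 without cDNA array 0. Cspg4, the NG2 proteoglycan that progenitors and pericytes carry, differed by −0.61 (limma adjusted p = 0.33), and the pericyte gene Pdgfrb by 2.36 (limma adjusted p = 0.000924). Among 14 tested progenitor and immature genes, 1 was higher on cDNA and 4 lower. Among 6 tested genes of pericytes and endothelium, 3 were higher and none lower. The part of fibroblast RNA in the Pdgfra difference was not tested.

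Of the 11 calls, 5 passed the threshold under every alternative tried: those of Mog, Cldn11, Mbp 1456228_x_at, Mobp 1433785_at and Cnp 1418980_a_at. All 11 kept their direction under every alternative. With 1 array left out, the lost calls not yet given were at Mbp 1419646_a_at, which did not pass without cDNA array 0 (−0.59, limma adjusted p = 0.179) or aRNA array 0 (−0.54, limma adjusted p = 0.164), at Mobp 1436263_at, without cDNA array 1 (−0.63, limma adjusted p = 0.182), aRNA array 0 (−0.89, 0.14) or aRNA array 1 (−1.06, 0.0758), and at Cnp 1449296_a_at, lost without cDNA array 0 (−1.10, 0.052), aRNA array 0 (−1.25, 0.106) or aRNA array 1 (−1.36, 0.0773). Without the filter on dim probe sets, calls were lost at Mbp 1419646_a_at (limma adjusted p = 0.0672), Mobp 1436263_at (0.0585) and Pdgfra 1438946_at (0.051), and without the intensity trend at the same 3 (0.119, 0.0734 and 0.0522 in that order). Nothing in the labels says that the 2 arrays of a preparation came from separate animals, so these p-values measure no more than how these arrays vary. The aRNA pair differed in the sex-linked transcripts. The cDNA pair differed too: on arrays 0 and 1 the cerebellar gene Cbln1 read 13.39 and 15.26, and the microglial gene C1qa 9.54 and 12.11. The summed meningeal and fibroblast markers given above went the other way. Whether a pair varied for technical reasons or by its tissue was not tested.

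Other genes of the lineage were read from lists, with 1 probe set per gene, the brightest. Of 31 tested genes of the myelin sheath and mature oligodendrocytes other than the 9, 9 were called higher on cDNA and 8 lower, with a median of −0.45. Anln, an actin-bundling anillin, was lower (−3.23, limma adjusted p = 0.000376), as was the tetraspanin gene Cd9 (−2.32, limma adjusted p = 0.00916). Apod, a lipid-binding apolipoprotein that oligodendrocytes and fibroblasts make, was higher (2.56, limma adjusted p = 0.000129), and so was Nfasc, whose neurofascins lie at the node and paranode of myelinated axons (1.95, limma adjusted p = 0.000363). Opalin, a membrane protein of mature oligodendrocytes, did not pass the test (0.15, limma adjusted p = 0.691) and read 12.09 and 12.03 on cDNA against 11.95 and 11.89 on aRNA.
Myelin is rich in cholesterol and galactolipids. Of 18 tested genes of their synthesis, 3 were higher on cDNA and 7 lower, with a median of −0.41: the sterol reductase gene Dhcr7 differed by 3.63 (limma adjusted p = 0.000109), the squalene epoxidase gene Sqle by −2.38 (0.000104), the sulfatide-forming sulfotransferase gene Gal3st1 by −1.70 (0.0149) and Fdps, which makes farnesyl diphosphate, by −1.41 (0.00798). Steps of the same synthesis were thus called in both directions.

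Of 9 tested transcription factor genes of the lineage other than Olig2, 2 were higher and 3 lower on cDNA, with a median of 0.38. Olig1, the close relative of Olig2, was lower like it and read 11.04 and 11.37 on cDNA against 14.12 and 14.36 on aRNA (−3.04, limma adjusted p = 7.6e-05). Zeb2 (−2.33, limma adjusted p = 0.00085) and Myrf, the regulator of myelin genes (−2.23, limma adjusted p = 0.00504), were also lower, and Tcf7l2, a Wnt pathway factor of newly formed oligodendrocytes, was higher (2.15, limma adjusted p = 0.00493). Sox10, which marks the whole lineage, differed by 0.38 (limma adjusted p = 0.325).
Among 14 tested genes of progenitors and immature cells, 1 was higher and 4 lower, with a median of −0.56. Gpr17, a receptor of cells about to differentiate, was at least 3.61-fold lower on cDNA and Cacng4 at least 3.0-fold, both under background on cDNA array 0 (limma adjusted p = 0.0414 and 0.0266). Tnr, the matrix protein tenascin R, was lower (−1.45, limma adjusted p = 0.00414) and the protocadherin gene Pcdh15 higher (1.26, limma adjusted p = 0.0232). With 1 array left out, the counts of the myelin list ran from 6 to 8 higher and 4 to 7 lower, those of lipid synthesis from 1 to 3 and 3 to 6, those of the transcription factors from 2 to 3 each way and those of the progenitor list from 0 to 1 and 2 to 4; the lowest counts for the first 2 lists came without aRNA array 0, with the single higher lipid gene left also without cDNA array 1. Of the genes named from these lists, Cd9 (−1.46, limma adjusted p = 0.0527) and Myrf (−1.75, 0.0565) were lost without aRNA array 1, and Gal3st1 (−1.57, 0.0847) and Fdps (−1.31, 0.0505) without aRNA array 0. Pcdh15 was lost without cDNA array 0 (1.01, limma adjusted p = 0.0845) or aRNA array 0 (1.12, 0.103). Gpr17 and Cacng4 were each lost without cDNA array 0, aRNA array 0 or aRNA array 1, with limma adjusted p up to 0.141 and 0.127.

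**Figure D3:**
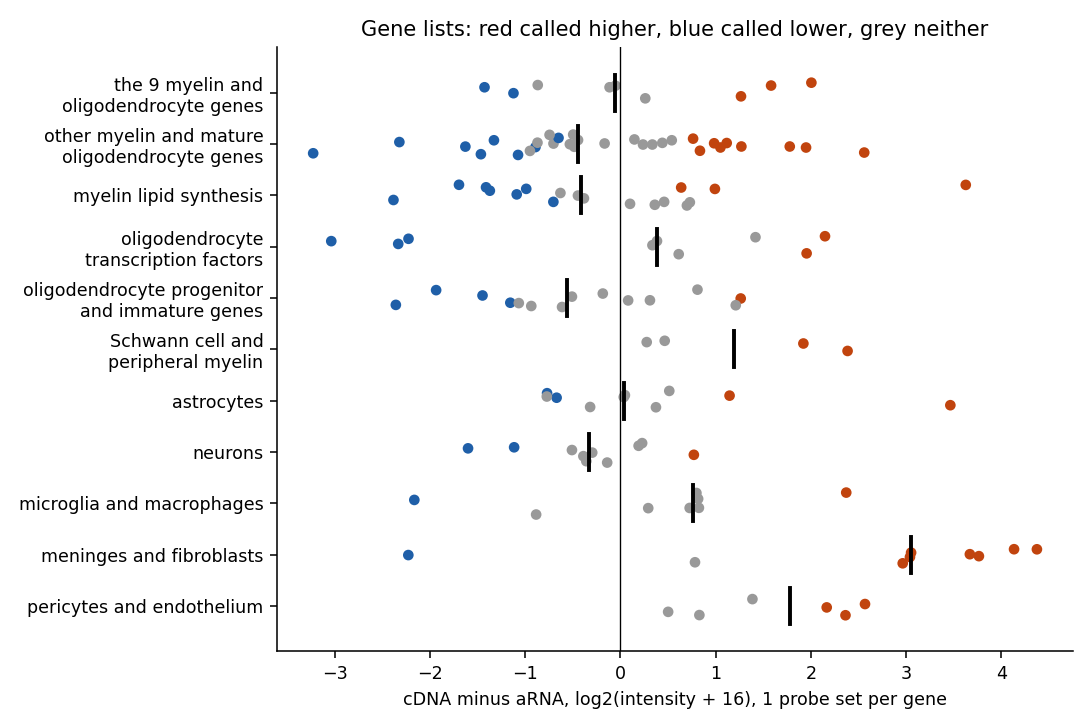
Difference cDNA minus aRNA, log2(intensity + 16), of each tested gene (a point, 1 probe set per gene) in the 9 genes and in lists of the oligodendrocyte lineage and of other cell types; black bars are list medians. The 4 oligodendrocyte lists have points on both sides of 0, with medians from −0.56 to 0.38, against 3.05 for meninges and fibroblasts.

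Markers of other cells are given for comparison. Astrocyte genes had 2 of 10 tested higher and 2 lower (median 0.04), with the lower count between 0 (without cDNA array 0, or without the intensity trend) and 4 (with arrays centred on their medians). Neuronal genes had 1 of 10 higher and 2 lower (median −0.33), and genes of pericytes and endothelium 3 of 6 higher and none lower (median 1.78). In the list of Schwann cell and peripheral myelin genes, 2 of 4 tested were higher and 2 were not called (median 1.19). The higher ones were Egr2, the master regulator of Schwann cell myelination, at least 4.9-fold (limma adjusted p = 0.0113), and the dystrophin-related Drp2 by 1.92 (limma adjusted p = 0.00103). Without cDNA array 0 or without aRNA array 0, where it lay under background, Egr2 was lost (2.06, limma adjusted p = 0.0577; 1.77, 0.0689), leaving 1. Pmp2, a fatty acid binding protein of peripheral myelin, and Foxd3, a neural crest factor, lay under background on all 4 arrays. Whether Schwann cell RNA had a part in any of the 9 genes was not tested. In the list of hindbrain and spinal cord genes, 2 of 4 tested were higher on cDNA and none lower (median 1.365). The higher ones were Cbln1, given below, and En2 (2.255), whose difference was 1.507 without cDNA array 1. Hoxa5 lay above background on all 4 arrays, with 9.46 and 9.68 on cDNA against 10.15 and 9.15 on aRNA (limma adjusted p = 0.913). Hoxc10 was above background on both aRNA arrays only, and Hoxc8 under it on all 4. Hoxb5 was above it on cDNA array 0 only (7.97), and Hoxa7 on cDNA array 1 only (8.23). Cbln1, a cerebellar granule cell gene, was 4.38 higher on cDNA (limma adjusted p = 0.000306).

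The other comparison is between array numbers, 1 against 0. None of the 23 tested probe sets passed the threshold, in an additive model with the preparation (limma), where 0.0622% of all tested probe sets did (0.0533% higher and 0.00888% lower on number 1). At an unadjusted p under 0.05 there were 3, against 5.86% of all tested probe sets, and none of the alternatives gave a call. The smallest adjusted p was 0.693 (limma), at Pdgfra 1438946_at. The median difference was 0.08 over the 23, against −0.02 over all tested probe sets.

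Within a preparation there is 1 array of each number and no replicate, so the differences that follow have no test. Between the cDNA arrays none of the 23 tested probe sets was at least 2-fold higher on number 1, against 5.97% of all tested, and 1 was at least 2-fold lower, against 7.48%. Between the aRNA arrays 1 was at least 2-fold higher, against 4.66%, and 1 at least 2-fold lower, against 3.93%. The lower one was Pdgfra 1438946_at in both preparations, by −1.12 on cDNA and −3.32 on aRNA, where aRNA array 1 lay under background. The higher one was Mbp 1425263_a_at, by 1.18 on aRNA and 0.50 on cDNA.

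**Figure D4:**
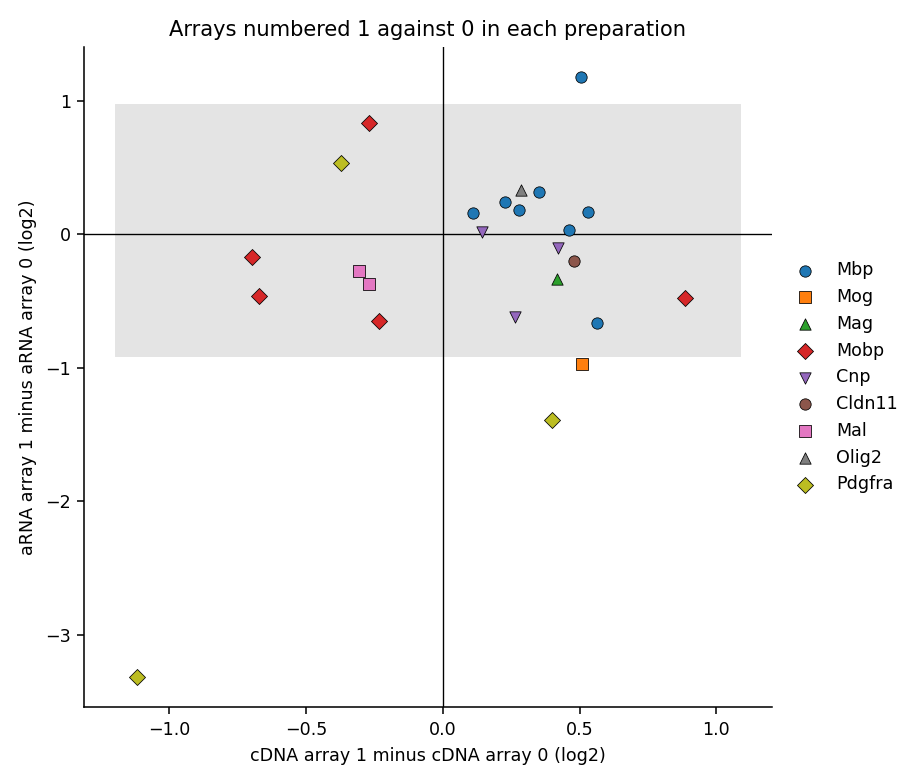
Difference number 1 minus number 0 in log2(intensity + 16) between the cDNA arrays (horizontal axis) and between the aRNA arrays (vertical axis) for the 25 probe sets. The grey box spans the 5th to 95th percentile of all tested probe sets on each axis, from −1.20 to 1.09 on cDNA and from −0.91 to 0.97 on aRNA; Mbp points lie mostly in the upper right and Mal and most Mobp points in the lower left.

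Probe sets of one gene leaned the same way in several cases, by small amounts. Of the 8 Mbp probe sets, 7 were higher on number 1 in both preparations, against 24.9% of all tested probe sets. The differences were 0.11 and 0.16 at the brightest, 1433532_a_at (cDNA and aRNA), and 0.53 and 0.17 at 1456228_x_at. The exception, 1419646_a_at, gave 0.56 on cDNA and −0.67 on aRNA. Both Mal probe sets were lower on number 1 in both preparations, by −0.27 on cDNA and −0.37 on aRNA at 1417275_at and by −0.31 and −0.27 at 1432558_a_at. Of the 5 Mobp probe sets, 3 were lower in both, with −0.67 on cDNA and −0.47 on aRNA at 1433785_at (limma adjusted p = 0.757). On cDNA 15 of the 23 tested probe sets were higher on number 1, against 48.7% of all tested, and on aRNA 11 were, against 49.6%. Probe sets of a gene read the same RNA and are not replicates, and 15 of the 23 tested probe sets had the same sign in both preparations, against 51.5% of all tested.

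Several genes with 1 probe set moved in opposite directions in the 2 preparations. Mog was higher on number 1 by 0.51 on cDNA and lower by −0.98 on aRNA. Cldn11 gave 0.48 and −0.20, and Mag 0.42 and −0.33. Olig2 was slightly higher in both, by 0.29 and 0.33. At the brightest probe set of Cnp the differences were 0.14 and 0.01, and at that of Pdgfra −0.37 and 0.53. None of the genes in the 4 oligodendrocyte lists was called between the numbers either. Their medians were 0.01 for the myelin list (Cd9 1.31, limma adjusted p = 0.615; Aspa −0.65, 0.871), 0.19 for lipid synthesis (Dhcr7 0.68, 0.779; Gal3st1 −0.64, 0.889), 0.125 for the transcription factors (Sox8 −1.30, 0.833; Zfp536 0.32, 0.968) and 0.11 for the progenitor list (Gpr17 1.28, 0.808; Cacng4 1.16, 0.871). The last pair are no firm sizes, since both genes lay under background on cDNA array 0. In the list of microglia and macrophages, 2 of 8 tested genes were called higher on number 1 in the same fit, Tyrobp (2.74, limma adjusted p = 0.022) and C1qa (2.70, 0.0175), with a median of 1.65. Both calls were lost without the intensity trend (limma adjusted p = 0.924 for each) and without preparation in the model, and Tyrobp also with a pseudocount of 64 (0.0527).

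Some genes followed the profile of a member over the 4 arrays closely. Likeness was the Euclidean distance between log2 profiles centred over the 4 arrays, searched among genes above background on all arrays, for members whose range exceeded 1. The nearest to Mog were Cnot7 (distance 0.17), Sowahb (0.23) and 4930430F08Rik (0.24), and to Cldn11 Elmo1 (0.04), Nfkbil1 (0.05) and Chic1 (0.08). For Mag they were Map6d1, Mrpl57 and Crhr1 (0.06 to 0.07), for Mobp Tceal8, Stim1 and Gnpda2 (each 0.12), and for Pdgfra Hcfc1r1, Itga10 and Prickle1 (0.05 to 0.07). Olig2 was nearest to Nsdhl, of the lipid synthesis list (0.04), then to Gm15417 and Usp39 (0.05 each). Over 4 arrays this is a description of shape only.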

How the data were processed

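Each of the 4 arrays gave 1 value per probe set. As deposited by the authors, these are linear intensity values without detection calls. The sources used here do not name the summarising software. Their 2% trimmed mean is 2500.02 on every array, so the values were already scaled and were kept as they stand.

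Values were taken as log2(intensity + 16), which understates dim differences. After 64 control probe sets were removed, the 22519 of 45037 others with a mean at or above the median (8.38) were tested with limma 3.58.1 in R 4.3.3 (lmFit, eBayes with an intensity trend, Benjamini-Hochberg over all of them). The preparations were compared with 2 residual degrees of freedom, and the numbers in an additive model with preparation and 1 residual degree of freedom. The fit was tested on simulated data. A fold whose lower group includes a reading under background is a bound, taken against the background level. Precision is limited by the number of arrays.

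Named probe sets are those of the 9 genes; of each list, up to 4 called genes with the largest difference (the 2 largest where none was called), and markers set beside a result. Lists of astrocytes, neurons, pericytes and endothelium are given by counts, apart from Pdgfrb. Opalin, Sox10, Hoxa5, Hoxc10 and other uncalled list genes were named after their values were seen. Genes, lists and tests were chosen with earlier results of these data known. Gene names came from the platform annotation, in which 34945 probe sets have 1 symbol, 932 have several and 9160 lack one. List symbols were brought up to date with RefSeq (GRCm38.p6) by gene identifier, which found 34741. List genes with no probe set in the annotation used were not analysed here. Plots were made in Python 3.11.15 (matplotlib 3.10.9).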

Additional observations from a re-analysis of the deposited data

Results flagged for a closer look

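At the brightest probe set, 4 of the 9 genes moved in opposite directions between the numbers in the 2 preparations. The number 1 minus number 0 difference on cDNA exceeded that on aRNA by 1.48 for Mog, 0.75 for Mag and 0.68 for Cldn11, and lay below it by −0.91 for Pdgfra (log2 scale). Each rests on 1 array per number and preparation, and the difference between the preparations was not tested. Of all 22519 tested probe sets, 51.5% had the same sign in both preparations, so opposite signs were common on the array. The median size of the number difference over them, regardless of sign, was 0.37 on cDNA and 0.33 on aRNA.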

How the results depend on the processing

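Between the preparations, the count of the 9 genes' probe sets called higher was 5, with 3 to 5 when 1 array was left out, and the count called lower was 6, with 3 to 6. The lowest counts came without cDNA array 0 (3 and 3) and, for the lower calls, also without aRNA array 0 (3). With each array centred on its median, which moves the median of all tested probe sets to −0.26, 9 were called lower and 5 higher; Mag (−1.02, limma adjusted p = 0.0301), Mbp 1425263_a_at and Mobp 1421010_at were then called too. Of all calls, 3957 were then higher and 6054 lower, against 4556 and 5166 with the values as deposited. No call changed sign. Over the tested probe sets and alternatives there were 271 results, of which 20 lost the threshold and 6 gained it. Only results of the 11 calls could lose it, and 6 of the 11 calls did so under at least 1 alternative. With the array number as a replicate block the counts were the same, 5 higher and 6 lower. The numbers are not known to pair the arrays: across probe sets, the number differences of the 2 preparations correlated with r = 0.0412. Between the numbers no probe set of the 9 genes was called under any alternative with a test, and leaving out an array gives the other preparation's difference, with a median of −0.11 (aRNA) or 0.27 (cDNA). Over all tested probe sets, 14 were called between the numbers, 58 with quantile normalization and 0 without an intensity trend or without preparation in the model (1319 at an unadjusted p under 0.05 in the model as designed). With only the probe sets above the 75th percentile tested, the meningeal and fibroblast list had 2 higher calls in place of 7, since fewer were tested. Depth cannot be stated for arrays; the 4 probe sets with an array under background have no firm fold.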
